A study of Caenorhabditis elegans with 4 samples.

Results

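The genes described here encode the enzymes and cofactors with which Caenorhabditis elegans makes and amplifies small interfering RNAs. A list of 10 genes (dcr-1, rde-4, rrf-1, rrf-3, ego-1, drh-3, mut-2, mut-7, mut-16 and ekl-1) was looked up by gene symbol in the probe annotation. By symbol, 8 were found. The gene known as mut-2 stands in the annotation under its other name, rde-3 (K04F10.6), and is called rde-3 below. No probe named rrf-1 in the annotation used here, so rrf-1 was not analysed. The 9 measured genes, of 14940 named genes tested, had 1 probe each. No filter on low values was applied here.

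RNA interference in this animal runs in steps. Dicer cuts long double-stranded RNA into primary small RNAs, and RNA-dependent RNA polymerases then copy the targeted transcript into abundant secondary small RNAs that Argonaute proteins carry. A set of mutator proteins gathers beside P granules in germ cells and supports this amplification. Much of this machinery is known from the germline, where it silences transposons and foreign sequence, while part of it also acts in somatic cells.

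Transcript ratios came from 4 two-channel arrays. In each, 1 of 4 preps of total RNA from glp-4 larvae at L4, the last stage before the adult, was in channel 2, and a reference of wild-type animals of mixed stages was in channel 1. In glp-4 mutants kept at the restrictive temperature germ cells are known not to multiply, but the labels name no allele, temperature, staging method or number of animals. Genotype and stage differ together between the channels and cannot be told apart, and in whole-animal RNA fewer cells of a type and less RNA per cell cannot be told apart. The labels do not say whether the preps were grown separately, so p-values measure only the spread between these preps, which may be technical. The deposited values are log2 ratios. A higher gene had more signal in glp-4 L4 than in the reference and a lower gene less, a direction that is likely from the order in which the labels name the RNAs and the channels but is not stated.

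On the 4 arrays 21197 to 21488 of 21632 probes had a value, with array medians of -0.12 to 0.02 and SDs of 0.92 to 1.09 on the log2 scale. Intensities were not used here, so whether the signal of a probe lay near background was not checked. The number of arrays also limits the precision. Of 16 measured germline markers all 16 were lower, with a list median of -2.52, -2.95, -2.82 and -2.74 on preps 1 to 4. Sperm markers were lower for 4 of 5, with medians of -1.498 to -1.06. All 5 intestine markers were higher (medians of 1.58 to 2.22), as were 4 of 5 epidermis markers (0.88 to 2.29) and 2 of 5 body wall muscle markers (0.04 to 0.95). Of 5 neuron markers 1 was lower, with medians of -0.33 to 0.26. By the same limma test, described below, 24.4% of all items were lower and 20.6% higher. The part of these marker differences in the ratios of the RNAi enzymes was not tested.

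Of the 9 measured RNAi enzyme genes 6 were lower, 0 were higher and 3 did not pass (limma, Benjamini-Hochberg adjusted p under 0.05 over 19989 items). Over all items tested 24.4% were lower and 20.6% higher at this adjusted threshold. At an unadjusted p under 0.05 in the same limma test, too, 0 of the 9 were higher. The share of all items at the unadjusted threshold was not computed. The 6 lower genes were ego-1, rde-3, rde-4, mut-16, rrf-3 and mut-7, and those that did not pass were dcr-1, drh-3 and ekl-1. The median of the 9 mean log2 ratios was -0.48, against -0.06 for all items. Past a 2-fold change (limma treat) lay 1 of the 9, ego-1, where 4.21% of all items lay past it on the lower side. Of the 8 genes with a value on every array 7 were below 0 on all 4, against 29.6% of items measured on 4 arrays. The count of 6 lower genes became 5, 4, 4 and 3 without preps 1, 2, 3 and 4, and 5 with each array centred on its median. Over all items the lower count of 4874 became 5520, 3538, 3892 and 3350 without preps 1 to 4, and 4308 with arrays centred.

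**Figure D1:**
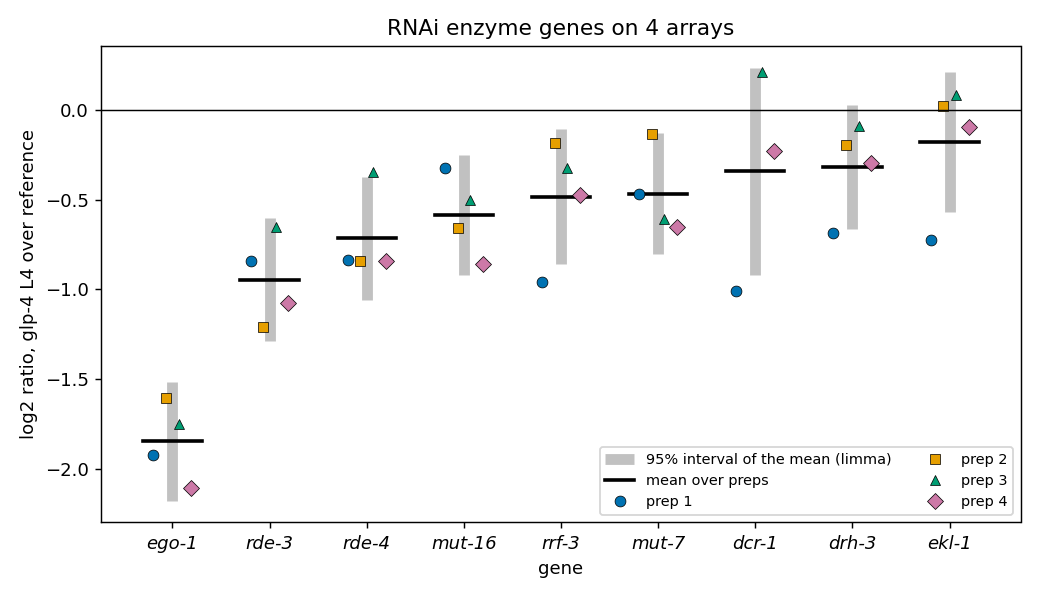
Log2 ratio of glp-4 L4 over reference (vertical axis) for the 9 RNAi enzyme genes, 1 symbol per prep, with the mean (black line) and the 95% limma interval (grey bar). The ego-1 points lie between -2.11 and -1.60, below every point of the other genes.

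Among the polymerases, ego-1 had the most negative ratio of the 9 genes. It encodes the RNA-dependent RNA polymerase known for its need in germline development and in RNAi of germline transcripts. Its log2 ratio was -1.92, -1.60, -1.75 and -2.11 on preps 1 to 4. With base 2 these values are linear ratios of 0.264, 0.329, 0.297 and 0.232. All 4 preps were low and close together. The mean was -1.85 ± 0.22 (SD, n = 4; limma adjusted p = 2.9e-05), a ratio of 0.278 with a 95% interval of 0.221 to 0.350. Of all items tested 3.23% had a more negative mean. The call held under all 15 alternatives, the test against a 2-fold change included (adjusted p = 0.00364). The spotted sequence was not used here, so binding of the ego-1 probe by transcripts of its neighbouring paralogue rrf-1 was not tested.

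The other measured polymerase, rrf-3, makes primary endogenous small RNAs together with Dicer, and its loss is known to make animals hypersensitive to RNAi. Its log2 ratio was -0.96, -0.18, -0.32 and -0.47 on preps 1 to 4, below 0 on every array and lowest on prep 1. The mean of -0.48 ± 0.34 (SD, n = 4; limma adjusted p = 0.0413) lay just inside the threshold. This call was lost without any 1 of the 4 preps (adjusted p of 0.106, 0.0577, 0.072 and 0.119 without preps 1 to 4) and with the arrays centred (adjusted p = 0.076).

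On the same array ego-1 lay below rrf-3 in 4 of 4 preps. The difference of log2 ratios was -0.96, -1.42, -1.43 and -1.64, with a mean of -1.36 ± 0.28 (SD, n = 4). In a two-sided exact permutation of the signs of the preps, 2 of 16 sign patterns were as extreme (adjusted p = 0.225 over 9 pairs of genes). This permutation test cannot give fewer than 2 of 16 on 4 preps, so no pair could pass it. The difference was larger than the SD between preps. Its range was -1.49 to -1.27 when each prep was left out in turn.

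The cofactors of these polymerases did not pass. The helicase gene drh-3, related to Dicer, encodes a partner that the polymerases need to make secondary small RNAs. It had -0.69, -0.19, -0.09 and -0.30 on preps 1 to 4, all below 0, with a mean of -0.32 ± 0.26 (SD, n = 4; limma adjusted p = 0.121, 95% interval -0.66 to 0.03), and -0.19 without prep 1. The Tudor domain gene ekl-1, whose product acts in the same complexes, had -0.72, 0.02, 0.08 and -0.10, low on prep 1 and near 0 on the other preps. Its mean was -0.18 ± 0.37 (SD, n = 4; limma adjusted p = 0.425, 95% interval -0.57 to 0.21), and 0.0038 without prep 1.

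The ratio of ego-1 was more negative than those of both cofactors its product works with. Within arrays ego-1 minus drh-3 was -1.24, -1.41, -1.66 and -1.81, with a mean of -1.53 ± 0.26 (SD, n = 4). For ego-1 minus ekl-1 the mean was -1.67 ± 0.35 (SD, n = 4), with -1.20 on prep 1 and -2.01 on prep 4. Both differences had 1 sign in 4 of 4 preps and 2 of 16 sign patterns as extreme, the fewest possible (exact sign-flip permutation, adjusted p = 0.225). Between drh-3 and ekl-1 the difference was -0.14 ± 0.12 (SD, n = 4; exact sign-flip permutation p = 0.25, adjusted p = 0.375), negative in 3 of 4 preps.

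**Figure D2:**
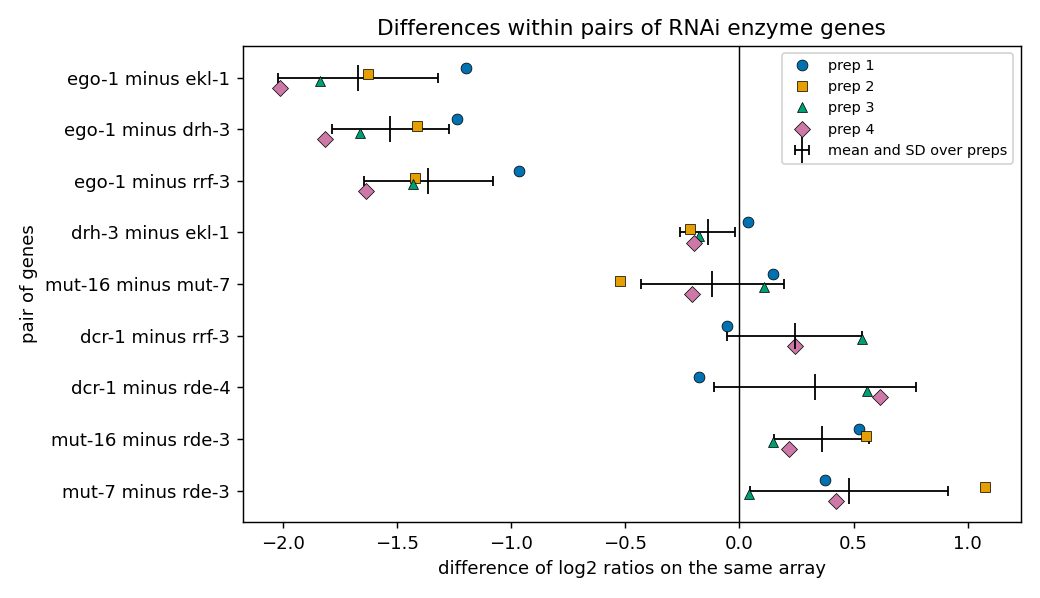
Difference of the log2 ratios of 2 genes on the same array (horizontal axis) for 9 pairs, 1 symbol per prep, with the mean and SD over preps. The 3 differences that involve ego-1 lie between -2.01 and -0.96, and those of the other pairs lie between -0.52 and 1.08.

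The initiation step is represented by dcr-1 and rde-4. Dicer, the product of dcr-1, cuts double-stranded RNA and also the precursors of microRNAs, so it is needed in many tissues. The gene had no value on prep 2, and -1.01, 0.21 and -0.23 on preps 1, 3 and 4, on both sides of 0. Its mean over 3 preps was -0.34 ± 0.62 (SD, n = 3; limma adjusted p = 0.294, 95% interval -0.92 to 0.24), the widest spread of the 9 genes. Without prep 1 the mean of the remaining preps was -0.0083.

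The partner of Dicer, rde-4, encodes a protein that binds double-stranded RNA and is needed for RNAi from long double-stranded RNA. Its log2 ratio was -0.83, -0.84, -0.35 and -0.84, nearly the same on preps 1, 2 and 4 and less negative on prep 3. The mean was -0.72 ± 0.25 (SD, n = 4; limma adjusted p = 0.00476), a ratio of 0.609 with a 95% interval of 0.481 to 0.771. The call held without each prep in turn (adjusted p of 0.0056 to 0.0303). On the 3 arrays with both genes, dcr-1 minus rde-4 was -0.18, 0.56 and 0.61, with a mean of 0.33 ± 0.44 (SD, n = 3), less than the SD. Without prep 1, the prep with the opposite sign, it was 0.59 ± 0.04 (SD, n = 2), where 2 values give little measure of spread. Without prep 3 or prep 4 it was 0.22 and 0.19. The exact sign-flip permutation p was 0.5, where 3 preps allow 0.25. For dcr-1 minus rrf-3 the mean was 0.24 ± 0.295 (SD, n = 3; exact sign-flip permutation p = 0.5, adjusted p = 0.5625), and 0.09 to 0.39 with a prep left out, lowest without prep 3 and highest without prep 1.

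All 3 mutator genes were lower, each with a mean change of less than 2-fold, though the 95% interval of rde-3 reached past 2-fold. The gene rde-3 encodes a nucleotidyltransferase that adds tails to the RNA fragments that serve as templates for the polymerases. It had -0.84, -1.21, -0.65 and -1.08 on preps 1 to 4, with ego-1, dcr-1 and rrf-3 more negative on prep 1. The mean, the most negative of the 9 after ego-1, was -0.95 ± 0.25 (SD, n = 4; limma adjusted p = 0.00113), a ratio of 0.519 with a 95% interval of 0.410 to 0.658. This call held without each prep in turn, with an adjusted p of at most 0.00928.

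The scaffold gene mut-16 encodes the glutamine- and asparagine-rich protein on which mutator foci assemble. Its log2 ratio was -0.32, -0.66, -0.50 and -0.86, lowest on prep 4, with a mean of -0.59 ± 0.23 (SD, n = 4; limma adjusted p = 0.0116). It no longer passed without prep 2 or prep 4 (adjusted p = 0.059 and 0.0702). The gene mut-7 encodes a protein with an exonuclease domain that joins these foci. It had -0.47, -0.13, -0.61 and -0.65, closest to 0 on prep 2, with a mean of -0.47 ± 0.235 (SD, n = 4; limma adjusted p = 0.0313). Without prep 3 or prep 4 mut-7 did not pass (adjusted p = 0.101 and 0.139).

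Within arrays mut-16 lay above rde-3 in 4 of 4 preps, by 0.36 ± 0.21 (SD, n = 4), and mut-7 lay above rde-3 in 4 of 4 preps, by 0.48 ± 0.43 (SD, n = 4). For both, 2 of 16 sign patterns were as extreme, the fewest possible (exact sign-flip permutation, adjusted p = 0.225). The scaffold and the exonuclease gene differed by less than the spread, with mut-16 minus mut-7 at -0.12 ± 0.31 (SD, n = 4; exact sign-flip permutation p = 0.625, adjusted p = 0.625). This difference was -0.21, 0.02 and -0.19 without preps 1, 2 and 3, so its sign turned without prep 2, and mut-7 minus rde-3 was 0.28 without prep 2.

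From the most to the least negative mean the order was ego-1, rde-3, rde-4, mut-16, rrf-3, mut-7, dcr-1, drh-3 and ekl-1. The mean of dcr-1 is over 3 preps, and on those arrays drh-3 minus dcr-1 was -0.01 ± 0.32 (SD, n = 3), which turns the order of these neighbours. The step from ego-1 to rde-3 was 0.90 ± 0.34 (SD, n = 4), and their 95% intervals, -2.18 to -1.52 and -1.29 to -0.60, did not overlap. Every later pair of neighbours in this order had overlapping intervals. The order was taken from these same means, so the steps and overlaps describe it and are not a test. Of the later steps, rde-3 to rde-4 at 0.23 ± 0.16 and drh-3 to ekl-1 at 0.14 ± 0.12 exceeded their own SD, and the others did not. These values place a gene by its difference between 2 RNAs, and say nothing of which transcript is more abundant.

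The share of these genes with their lowest value on prep 1 was near that of all items. Of the 8 genes on 4 arrays, 3 (rrf-3, drh-3 and ekl-1) had their lowest value on prep 1, against 35.5% of items measured on 4 arrays, and dcr-1 was also lowest there among its 3 values. With arrays centred 4 of the 8 were lowest on prep 1, against 41.9% of items. On prep 3, 4 of the 8 had their highest value, against 31.3% of items. The median over the measured RNAi enzyme genes was -0.83, -0.43, -0.35 and -0.65 on preps 1 to 4. Preps 3 and 4 share a code and a date-like string in their titles, which the labels do not explain. With these preps averaged rrf-3 and mut-7 no longer passed (limma adjusted p = 0.0808 and 0.0996).

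Set against the median of the germline markers, the 9 genes had ratios nearer to 0. On each array ego-1 lay above the marker median, by 0.60, 1.34, 1.07 and 0.63 on preps 1 to 4, with a mean of 0.91 ± 0.36 (SD, n = 4). Of the 16 markers, 13 had a more negative mean than ego-1, and all 16 had a more negative mean than each of the other 8 RNAi enzyme genes. The marker nearest to 0, the Notch receptor gene glp-1, had -1.51 ± 0.33 (SD, n = 4). The markers named by rule were rme-2, the yolk receptor of oocytes, at -4.07 ± 0.10 and him-3, a meiotic chromosome axis gene, at -3.68 ± 0.68 (SD, n = 4).

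Genes around these enzymes were taken from 7 further lists of RNAi and small RNA genes, with 59 of 68 listed genes measured. Of the 59, 32 were lower and 2 higher, with a median mean log2 ratio of -0.58, against -0.06 for all items and -0.48 for the RNAi enzymes. Over all items 24.4% were lower and 20.6% higher, the background for the counts of each list below. The lower count was 26 to 34 when each prep was left out in turn. The lists differed widely among themselves.

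The most negative ratios stood in the list of piRNA biogenesis and in a joined list. The joined list held genes of nuclear RNAi, of modification of secondary small RNAs, and of Argonautes that carry them. Of its 10 measured genes 6 were lower and 0 higher, with a median of -0.84, and the Argonaute genes wago-1, csr-1 and wago-4 were among the lower ones. They were led by 2 Argonaute genes whose products carry secondary small RNAs, wago-1 at -3.87 ± 0.34 and hrde-1 at -3.495 ± 0.25 (SD, n = 4; limma adjusted p = 2.11e-06 for both). Of the nuclear RNAi genes nrde-1 to nrde-4, picked out once their values were known, nrde-4 was lower at -0.76 ± 0.40 (SD, n = 4; limma adjusted p = 0.00816). The genes nrde-1, nrde-2 and nrde-3 did not pass, at -0.32 ± 0.25, 0.34 ± 0.29 and -0.26 ± 0.28 (SD, n = 4). Of 11 genes of piRNA biogenesis, the germline small RNA class that does not need Dicer, 10 were lower and 0 higher, with a median of -1.63. In this list tost-1 had -2.67 ± 0.28 and the Piwi gene prg-2 -2.27 ± 0.37 (SD, n = 4).

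Further lists held partners of the enzymes themselves. Of 11 mutator and small RNA turnover genes 4 were lower and 0 higher, with a median of -0.30. The endonuclease gene rde-8 had -1.44 ± 0.35 and rde-2, whose product binds MUT-7, -0.87 ± 0.28 (SD, n = 4). The polymerase paralogue rrf-2, picked out once its value was known, had 0.01, 0.08, -0.02 and -0.23 on preps 1 to 4, with a mean of -0.04 ± 0.13 (SD, n = 4; limma adjusted p = 0.837).

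Of 10 genes of the Dicer complex and of endogenous RNAi 5 were lower and 0 higher, with a median of -0.56. The RNA phosphatase gene pir-1 had -1.12 ± 0.45 and the Argonaute gene ergo-1 -0.84 ± 0.12 (SD, n = 4). The lower count was 3 without prep 2 or prep 4, and 1 gene was higher without prep 1. The Argonaute gene rde-1, which receives the small RNAs cut by Dicer and RDE-4 and was named after its value was seen, had -0.14 ± 0.45 (SD, n = 4; limma adjusted p = 0.576).

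The remaining lists were mixed. Of 10 genes of miRNA processing and silencing, which share Dicer with RNAi, 5 were lower and 1 higher, with a median of -0.54. The Drosha gene drsh-1 had -1.16 ± 0.16 and nhl-2 -1.04 ± 0.19, while the higher one, tsn-1, picked out once its value was known, had 0.77 ± 0.13 (SD, n = 4). Lower genes of this list numbered 2 without prep 2 and 3 without prep 4. Of 5 genes of systemic RNAi, sid-1, a double-stranded RNA channel, was lower at -0.58 ± 0.18, and sid-2, known from uptake in the intestine, was higher at 0.50 ± 0.38 (SD, n = 4; limma adjusted p = 0.0101 and 0.0446). The call of sid-2 was lost without prep 1, 2 or 4. That of sid-1 was lost without prep 4, and 3 genes were lower without prep 1. Of the 2 adenosine deaminases that edit double-stranded RNA, adr-2 was lower at -0.96 ± 0.27 (SD, n = 4), and adr-1, picked out once its value was known, had -0.06 ± 0.43.

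**Figure D3:**
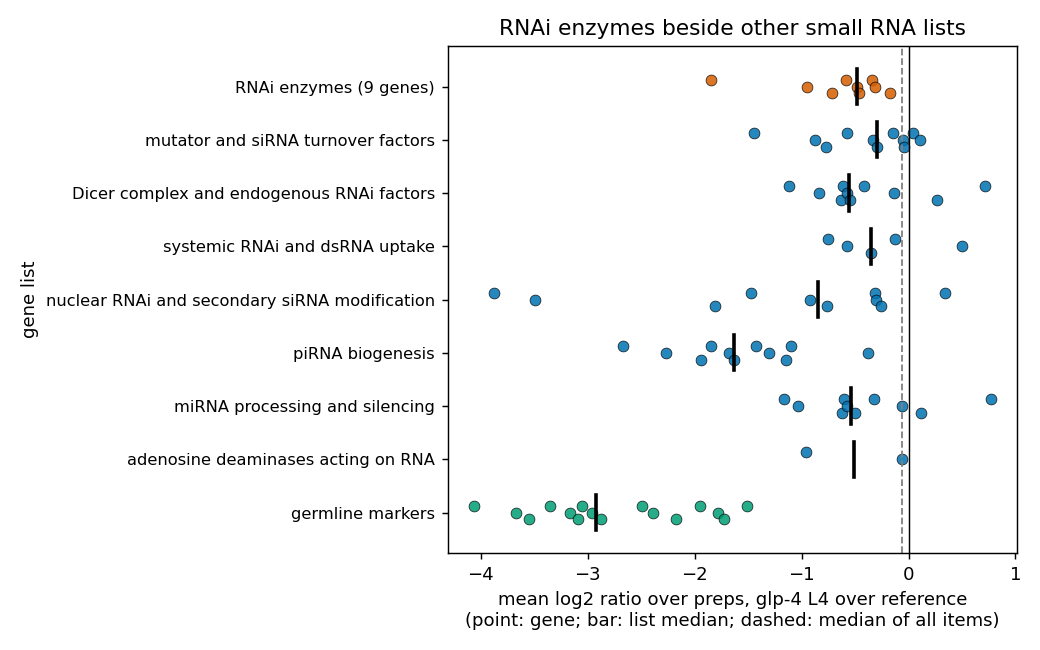
Mean log2 ratio over preps (horizontal axis), 1 point per gene, for the 9 RNAi enzymes, 7 further small RNA lists and the germline markers, with each list's median (black bar) and the median of all items (dashed line). The RNAi enzymes lie between -1.85 and -0.18, and the germline markers between -4.07 and -1.51.

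The firmness of the calls differed among the 9 genes. Under the 13 alternatives that keep the test against 0 and the threshold of 0.05, ego-1, rde-3 and rde-4 passed each time. In none did drh-3 or ekl-1 pass, and neither did dcr-1 in the 12 that gave it a value. The calls of mut-16, rrf-3 and mut-7 were lost in 3, 9 and 5 of these 13.

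**Figure D4:**
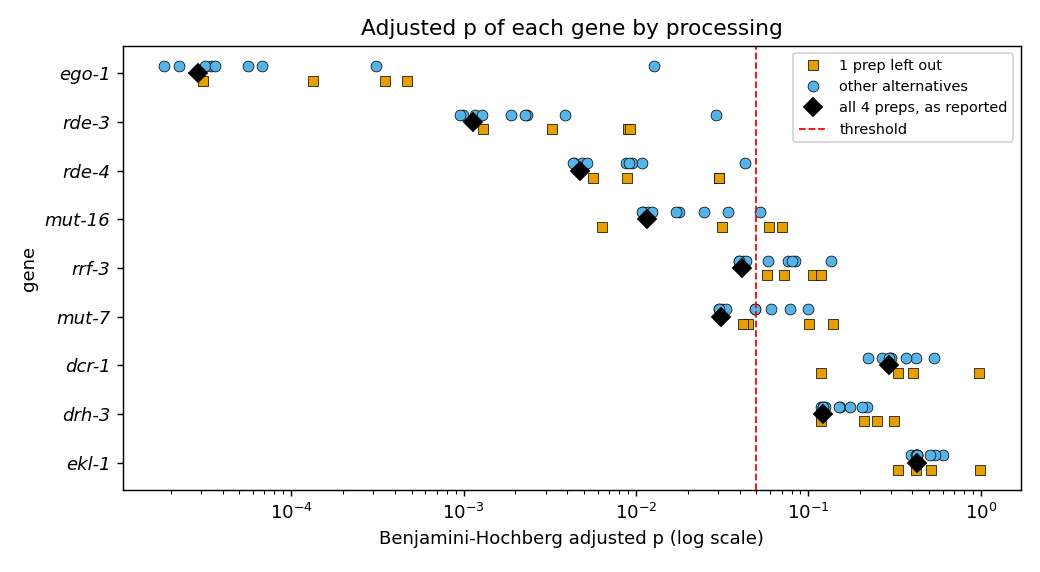
Benjamini-Hochberg adjusted p (log axis) of each RNAi enzyme gene as reported (diamond), with 1 prep left out (squares) and under other alternatives that keep the test against 0 (circles), with the threshold of 0.05 as a dashed line. All symbols of ego-1, rde-3 and rde-4 lie left of the threshold and all symbols of dcr-1, drh-3 and ekl-1 lie right of it.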

How the data were processed

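The authors deposited 1 log2 ratio per probe and array. Base 2 was inferred: raising 2 to each value gave whole thousandths (tolerance 0.01 thousandth) for 100% of ratios below 20. How background, dyes, centring and spot quality were treated is not given in the sources used here. Names came from the (possibly dated) platform annotation, brought up to date through the RefSeq WBcel235 gene table by gene ID for 16360 probes and by accession or symbol for 90. Of 21632 probes, 16450 had 1 symbol, 247 several and 4935 none here. A gene's probes were averaged on each array, and unnamed probes stayed as single items.

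All 19989 items with values on 3 or 4 arrays entered 1 fit against 0 with limma 3.58.1 in R 4.3.3 (intercept, eBayes, two-sided), with p-values adjusted over all of them by Benjamini-Hochberg. The spread of the reference, the only counterpart, does not enter. Pairs of genes were compared by exact sign-flip permutation in scipy 1.17.1. The code of the fit was run on simulated data with independent noise on each array. That run does not measure the error rate of the calls made here. Named genes were the members, for each list the 2 called genes of greatest absolute mean with 1 sign on 4 arrays, the 5 genes nearest to the member median, and the protein-coding genes beside each member. Of these, the genes of the muscle, intestine, epidermis, neuron and sperm markers are given as counts and medians only. Members and lists were chosen with earlier results of these data known. Sequences of these genes were not used here.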

Additional observations from a re-analysis of the deposited data

Results flagged for a closer look

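Dixon's ratio was computed for 54 sets of 4 values, and in 2 of them a single prep lay apart, where chance alone gives about 1 in 20. The rde-4 log2 ratio of prep 3 was -0.35, while the other preps had -0.84 to -0.83. The drh-3 minus ekl-1 difference of prep 1 was 0.0376, while the other preps had -0.22 to -0.18.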

How the results depend on the processing

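Alternatives centred the arrays, or centred and scaled them; took items with values on all 4 arrays, or on 2 or more; left out or averaged preps (3 with 4); used the title code as a random block; fitted single probes; changed the moderation to robust or none; and used an adjusted p under 0.01 or a test against a 2-fold change. No pairing of samples between groups was possible because the study has a single group. limma's duplicateCorrelation returned no value, so the correlation within the code, 0.370, was taken from the variances within and between codes. The 6 lower RNAi enzyme genes became 3 without moderation or at 0.01, 1 past 2-fold, and 3 to 5 with a prep left out. Over all items, 4874 lower and 4113 higher became 2781 and 2524 without moderation and 842 and 876 past 2-fold, and 3093 were lower at 0.01. With a prep left out 3350 to 5520 of all items were lower. Of the other small RNA lists, the 32 lower genes became 8 past 2-fold, and the 2 higher became 1 without moderation or at 0.01, 0 past 2-fold, and 1 to 2 with a prep left out. The means of rrf-3 that did not pass were -0.43 centred, -0.46 scaled, -0.51 with preps averaged, -0.50 with the block, and -0.48 without moderation, at 0.01 and past 2-fold, with -0.58 to -0.33 when a prep was left out. For mut-7 they were -0.41 averaged, -0.44 with the block and -0.47 without moderation, at 0.01 and past 2-fold (-0.58 to -0.40 with a prep left out). For mut-16 it was -0.59 without moderation, at 0.01 and past 2-fold (-0.67 to -0.49 with a prep left out). Past 2-fold rde-4 at -0.72 and rde-3 at -0.95 did not pass, a stricter question by construction. The mean of ekl-1, not called, ran from -0.265 to 0.0038 with a prep left out and was above 0 without prep 1. The cause of the other lost calls was not tested.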

Other observations

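The 5 named genes whose log2 ratios lay nearest to the median of the RNAi enzymes on the 4 arrays, by Euclidean distance among 14639 named genes, were lin-49, F43H9.3, T07G12.8, sng-1 and ttll-4. Their distances were 0.06 to 0.11. They lie on chromosomes IV, V, IV, X and III, and their means ran from -0.61 to -0.53. The likeness is over 4 arrays only, and many genes have ratios of this size.

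Of the 9 measured RNAi enzyme genes, 5 lie on chromosome I, 3 on III and 1 on II in the RefSeq gene table. The genes rrf-1 and ego-1 are next to each other there. Of 18 protein-coding genes beside the 10 listed genes, 15 were measured, of which 5 were lower, 2 higher and 8 did not pass, with a median of -0.34. Over all items 24.4% were lower and 20.6% higher. The lower neighbours were K04F10.3 beside rde-3 at -1.30 ± 0.22, emb-27 beside rrf-3 at -0.93 ± 0.41, apc-2 beside dcr-1 at -0.81 ± 0.43, F26A3.4 beside ego-1 at -0.76 ± 0.33 and B0379.1 beside mut-16 at -0.57 ± 0.42 (SD, n = 4). The products of emb-27 and apc-2 are subunits of the anaphase-promoting complex. The higher ones were bli-4 beside rde-3 at 0.67 ± 0.44 and eif-2Balpha beside mut-7 at 0.45 ± 0.31 (SD, n = 4). For ego-1 the log2 ratio of -1.85 was more negative than that of its measured neighbour, and for dcr-1 it was less negative than that of apc-2 and close to that of pros-1 on its other side, at -0.34 ± 0.27 (SD, n = 4). These differences between neighbours were not tested.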
